A study of Mus musculus with 24 samples.

Results

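The genes described here were the 80 mouse ribosomal protein genes, out of 21938 protein-coding genes with a promoter window. They were chosen by symbol alone, as protein-coding genes named Rpl or Rps followed by a number and at most 1 letter out of a, x, l and y, together with the Rplp genes and Rpsa. 31 encode proteins of the small subunit of the ribosome and 49 proteins of the large subunit. The promoter window ran 3 kb to each side of the 5' end of the gene in the GENCODE annotation of the mm10 build. The measurement was a list of broad peaks of H3K27me3, trimethylated lysine 27 of histone H3, for each of 24 CUT&RUN libraries, a method in which an antibody guides a nuclease to cut out the chromatin that carries a mark. The libraries came from cultured cerebellar granule neurons (CGNs), grown from granule neuron precursors that were purified on a Percoll gradient from the cerebella of CD1-IGS pups about 1 week old. Groups had 3 biological replicates each. The time course held DIV1, DIV3, DIV5 and DIV7 libraries (DIV, days in vitro). A further 3 libraries came from CGNs given 5 µM GSK-126, an inhibitor of the EZH2 methyltransferase, with 3 DMSO libraries of their own. In the same way, 3 libraries came from CGNs given 1 µM GSK-J4, which inhibits KDM6 demethylases, with 3 DMSO libraries. Each compound was given once, on DIV1, 4 days before harvest on DIV5. All cultures received 1 µM cytosine arabinoside (AraC) on DIV2, so DIV1 cells were collected before it and the other groups after it, and time and AraC cannot be told apart in comparisons with DIV1.

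Ribosomal proteins assemble with ribosomal RNA into the small subunit, which decodes mRNA, and the large subunit, which joins amino acids. Most of their genes are transcribed at high levels in nearly every cell type from promoters without a TATA box that lie in or near CpG islands. H3K27me3 is written by Polycomb repressive complex 2, whose catalytic subunit is EZH2, and is removed by KDM6 demethylases. It is a mark of silent promoters, and active housekeeping promoters are places where it is usually low, so calls there measure how often peaks appear at active genes. Ribosomal protein genes are also known for the many processed pseudogenes they have left in mammalian genomes, which are intronless copies of their spliced mRNAs.

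The lists held between 4740 and 22832 peaks per library, covering between 1.07 and 6.57 Mb. Read depth is unknown, so a window without a peak is a window below the threshold of the peak caller. GSK-126 replicate 3 stood apart. Among the 3285 promoters marked in it, 1551 (47.2%) were marked in no other library, against 0.698% to 5.66% in the other 23 libraries, and 76.5% of the 3285 had a peak within 500 bp of the 5' end, against 46.9% to 68.3%. Results are therefore given with and without it. That its antibody and treatment are those of its label was not tested, and the values printed for it are those of the library labelled GSK-126 replicate 3. Peaks of a repressive mark cannot verify the cell type. Of 10 promoters of CGN marker genes 0% to 20% had a peak in a given library and 6 never had one, and of 14 promoters of markers for glia, endothelium and other neurons 7.14% to 35.7% had one and 8 never did, with Cldn5 marked in all 24 libraries.

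Few ribosomal protein promoters carried a peak. Averaged over the 24 libraries, 6.98% ± 4.89 of the 80 had a peak in the 3 kb window, against 10.8% ± 3.27 of all protein-coding promoters (SD, n = 24 libraries). The share was below that of all promoters in 20 libraries and above it in 4, which were the 3 GSK-126 libraries and DMSO for GSK-126 replicate 3. All 80 genes were read in every library, so no sampling interval applies to these shares.

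In the time course, 4, 7 and 2 ribosomal protein genes had a peak in DIV1 replicates 1 to 3, when 7.71%, 16.4% and 14.0% of all promoters did. At DIV3 the counts were 0, 4 and 9 genes, beside 7.10%, 12.7% and 17.5% of all promoters. DIV5 had 8, 6 and 5 genes, beside 12.1%, 10.3% and 13.5%. DIV7 had 2, 3 and 2 genes, beside 7.18%, 6.67% and 9.65%. As shares of the 80 genes these were 5.42% ± 3.15 at DIV1, 5.42% ± 5.64 at DIV3, 7.92% ± 1.91 at DIV5 and 2.92% ± 0.722 at DIV7 (SD, n = 3 each), and in each group the mean lay below that of all promoters (12.7%, 12.4%, 12% and 7.84%).

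The GSK-126 libraries had 8, 7 and 17 genes with a peak, beside 9.27%, 6.14% and 15% of all promoters, and their DMSO libraries had 10, 9 and 12 genes, beside 12.8%, 14.5% and 12.9%. The mean shares, 13.3% ± 6.88 with GSK-126 and 12.9% ± 1.91 with DMSO, differed by less than the spread of the libraries, and without replicate 3 the GSK-126 mean was 9.38%. The lists were of unequal length, and when only the strongest peaks of each library were used, up to the length of the shortest of the 24 lists, 5, 7 and 13 genes had a peak with GSK-126 (10.4% ± 5.2) and 6, 3 and 3 with DMSO (5.00% ± 2.17). The GSK-J4 libraries had 4, 2 and 2 genes, beside 7.59%, 8.26% and 12% of all promoters, and their DMSO libraries had 4, 3 and 4 genes, beside 9.53%, 8.46% and 8.98%. These shares were 3.33% ± 1.44 with GSK-J4 and 4.58% ± 0.722 with DMSO. Over all deposited peaks both groups of the GSK-126 experiment thus had higher mean shares of ribosomal protein genes with a peak than the other 6 groups, but at the common length the DMSO group was level with DIV5, at 5.00% each. The difference between ribosomal protein genes and all promoters changed with the peaks kept, and the cause was not tested. It was −3.87 percentage points over all deposited peaks, −0.506 at the common length, and 0.562 when peaks below a −log10 q of 2 were dropped. These values include GSK-126 replicate 3, where 16.2% of ribosomal protein genes and 9.67% of all promoters had a peak at the common length. Over all deposited peaks the difference was −4.31 without that library, −7.14 with 1 kb windows, and −5.20 without peaks centred in exons of the own transcript. At the common length the mean share of ribosomal protein genes lay above that of all promoters at DIV5 (5.00% against 4.09%), with GSK-126 (10.4% against 6.87%) and in its DMSO group (5.00% against 4.11%).

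**Figure D1:**
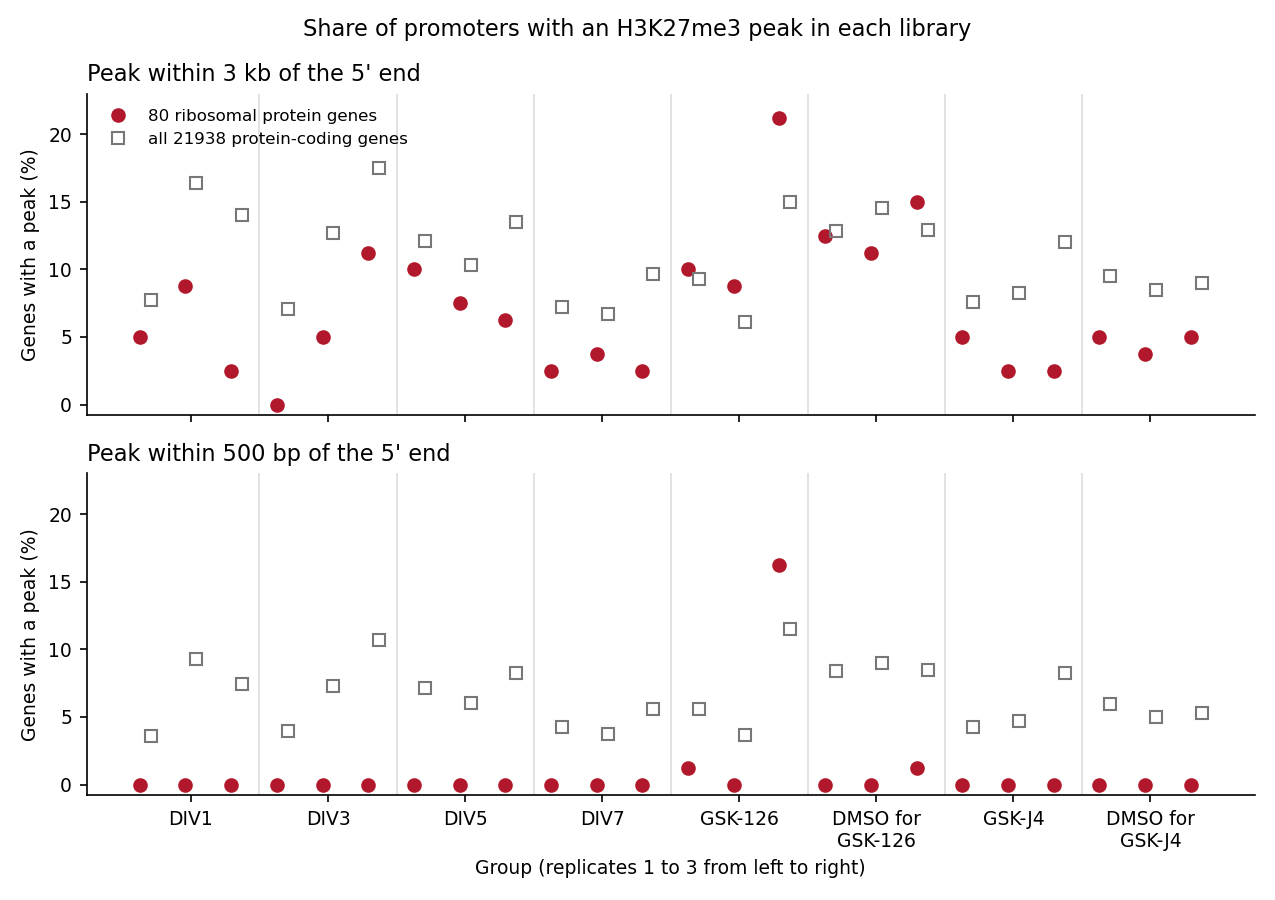
Share of the 80 ribosomal protein genes (filled circles) and of all 21938 protein-coding genes (open squares) with a peak, in percent on the vertical axis, for each library in the order of groups and replicates on the horizontal axis. The upper panel counts peaks within 3 kb of the 5' end and the lower panel those within 500 bp, where 23 libraries lie between 0% and 1.25% for ribosomal protein genes and GSK-126 replicate 3 is at 16.2%.

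Close to the start site hardly any ribosomal protein gene had a peak outside GSK-126 replicate 3. Within 500 bp of the 5' end, 21 of the 24 libraries had no ribosomal protein gene with a peak. GSK-126 replicate 1 had 1 such gene (Rpl7a), DMSO for GSK-126 replicate 3 had 1 (Rplp1), and GSK-126 replicate 3 had 13. The share of ribosomal protein genes was thus 0% to 1.25% in the 23 libraries without GSK-126 replicate 3, against 3.62% to 10.7% of all promoters, and 16.2% in that library, against 11.5%. In the 23 libraries none of the 152 ribosomal protein peaks lay over a 5' end and 94.1% were centred more than 1 kb from it, whereas 15.1% of peaks at all promoters lay over the 5' end and 35.7% were centred beyond 1 kb. In GSK-126 replicate 3, 5 of 17 ribosomal protein peaks lay over the 5' end (29.4%), against 26.0% of its peaks at all promoters. There 13 of the 17 were centred within 500 bp (76.5%), against 64.6% at all promoters. In that library, peaks at all promoters thus also lay mostly near the start.

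**Figure D2:**
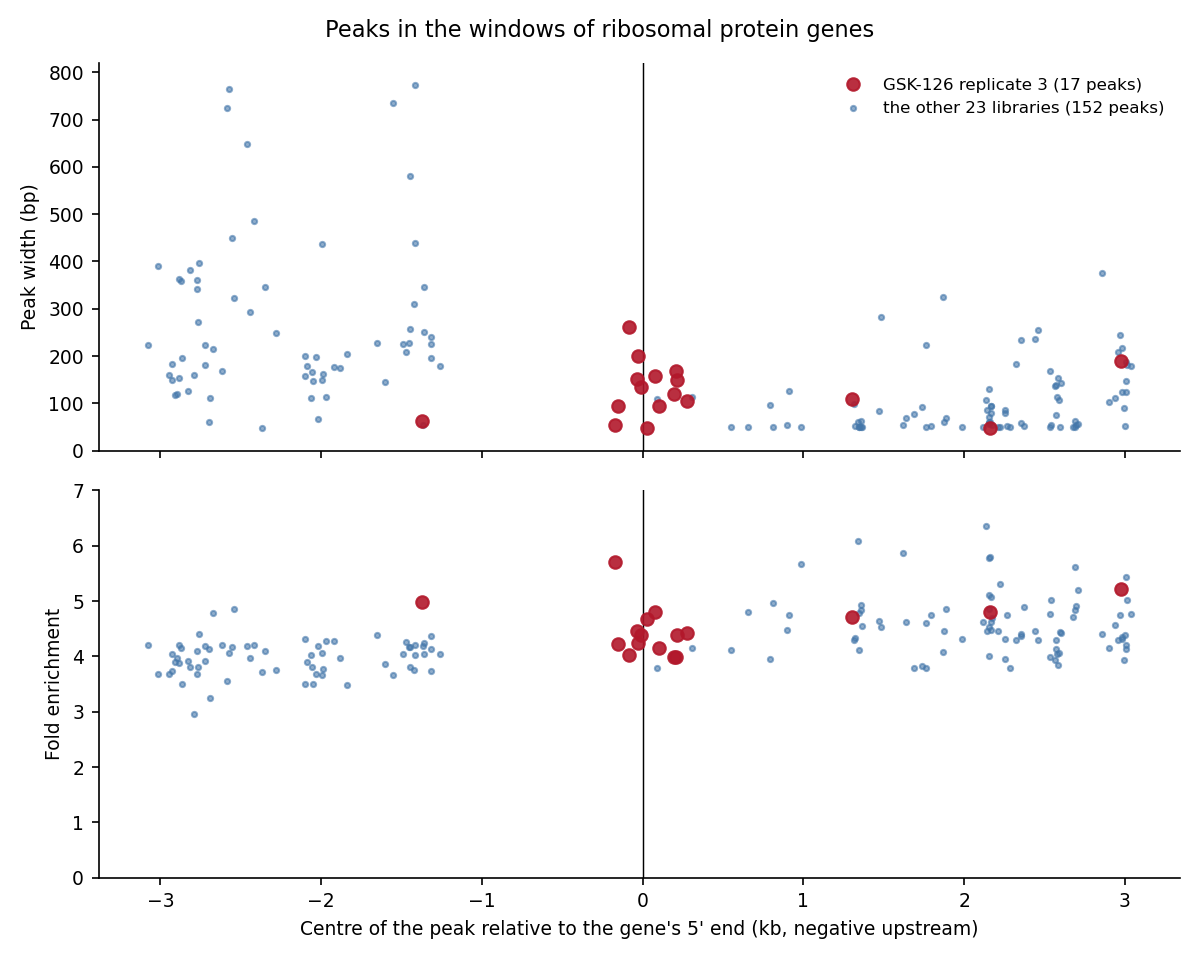
Every peak in a ribosomal protein window, by the distance of its centre from the 5' end (kb, horizontal axis, negative upstream) and by its width in bp (upper panel) or its fold enrichment (lower panel). The 152 peaks of 23 libraries (small points) leave the start site nearly empty, with 2 centred within 500 bp, while 13 of the 17 peaks of GSK-126 replicate 3 (large points) lie there.

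The peaks were narrow. The 169 ribosomal protein peaks had a median width of 134 bp, ranging from 48 to 773 bp, and none reached 1 kb, against a median of 221 bp and 5.59% at 1 kb or wider among the 75541 peaks of all promoters. Their fold enrichment, the ratio of signal over the local background of the caller, had a median of 4.24 and ran from 2.96 to 6.36, against a median of 3.65 for all promoters. So the ribosomal protein peaks were narrower than the typical promoter peak but had a higher ratio.

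By library, the median widths at DIV1 were 216, 163 and 498 bp in replicates 1 to 3, with median fold enrichments of 4.30, 4.04 and 3.75. DIV3 replicate 1 had no peak, and replicates 2 and 3 had medians of 149 and 147 bp and of 4.07 and 4.15. DIV5 had median widths of 210, 148 and 122 bp at fold enrichments of 3.83, 4.08 and 4.08. The wide DIV1 and DIV5 values came with the Rpl26 and Rpl38 peaks described below. DIV7 had medians of 148, 78.0 and 294 bp at fold enrichments of 4.29, 4.35 and 4.12. GSK-126 libraries had medians of 112, 96.5 and 120 bp at 4.11, 4.62 and 4.42, and their DMSO libraries medians of at most 118 bp at 4.26, 4.26 and 4.13. GSK-J4 libraries had medians of 62.5, 180 and 56.5 bp at 4.61, 4.32 and 4.46, and their DMSO libraries 164, 229 and 164 bp at 4.26, 4.53 and 4.60. In each of the 23 libraries with a ribosomal protein peak, the median fold enrichment of those peaks exceeded that of all promoter peaks in the same library, which ran from 3.33 to 4.15. These medians rest on 2 to 17 peaks per library.

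Which genes recurred was uneven. 44 of the 80 genes (55.0%) had no peak in any library, 19 had one in 1 library (23.8%), 11 in 2 to 4 (13.8%), 2 in 5 to 11 (2.50%), and 4 in 12 to 23 (5.00%). Over all promoters the last 4 of these shares were 14.4%, 8.07%, 6.15% and 8.15%. Of the 19 genes, 11 had their peak only in GSK-126 replicate 3. In the other 23 libraries 55 genes (68.8%) had no peak, against 69.0% of all promoters. No ribosomal protein gene had a peak in all 24 libraries, while 285 of all promoters did (1.30%). 5.00% of the ribosomal protein genes had a peak in at least 12 libraries, against 9.45% of all promoters, of which 62.0% had no peak in any library. 6 genes with a peak in at least 8 libraries, Rpl26 (21 libraries), Rpl38 (16), Rpl21 (15), Rps2 (14), Rpl7a (9) and Rpsa (8), accounted for 83 of the 134 pairs of a gene and a library with a peak (61.9%), and for 67.5% of the pairs in the 23 libraries without GSK-126 replicate 3. Most of their peaks lay upstream of the gene or inside its exons, and a few lay in introns of Rpl21 and Rpl7a.

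**Figure D3:**
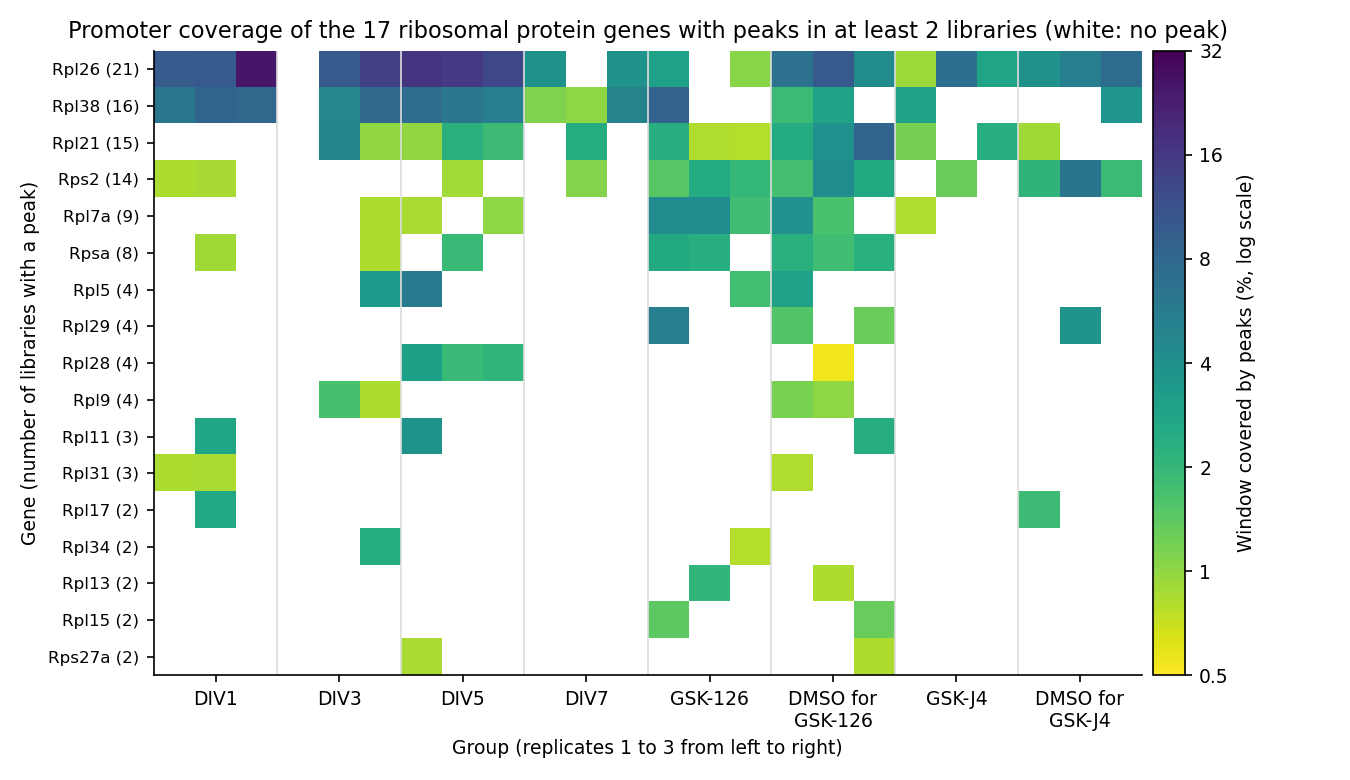
Percentage of the 6 kb window covered by peaks (colour, log scale, white for no peak) for the 17 ribosomal protein genes with a peak in at least 2 libraries (rows, with the number of libraries in brackets) in each of the 24 libraries (columns, by group). The 6 upper rows recur across groups, and the 19 genes with a peak in 1 library, 11 of them in GSK-126 replicate 3, are not drawn.

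Rpl26, a large-subunit protein that also binds the mRNA of p53, had the most recurrent peaks, and they were upstream of the gene in intergenic sequence. A cluster of peaks about 1.4 kb before the 5' end (chr11:68899664-68900553) was present in 19 libraries, and a second one, centred at −2387 bp, in 12. Their widths per library reached 773 bp and their fold enrichment ran from 3.55 to 4.98. The window covered was 9.67%, 9.88% and 25% at DIV1, 0, 9.90% and 14.6% at DIV3, 17.1%, 16% and 13.3% at DIV5, and 3.80%, 0 and 3.75% at DIV7. The DIV7 libraries lay below the DIV1 libraries without overlap, as they did at 17.5% of all promoters tested, and the DIV7 lists were short, covering 1.19 to 2.25 Mb, against 1.33 to 5.19 Mb at DIV1. Rpl38, a large-subunit protein that in mice is required for translation of a set of Hox mRNAs, had clusters of the same kind, centred at −2884 and −1996 bp and present in 11 libraries each. Its coverage was 6.22%, 8.40% and 7.82% at DIV1, 0, 4.68% and 7.88% at DIV3, 7.27%, 6.02% and 5.38% at DIV5, and 1.12%, 1.02% and 4.97% at DIV7. Here too all DIV7 values were below all DIV1 values, a pattern not seen at the common length, where the means were 2.37% at DIV7 and 2.07% at DIV1. The stretches of 300 bases at the middle of these peaks are shown, 1 for each gene, because they hold its most often called upstream bases. They come from chr11:68900028-68900327 and chr11:114665582-114665881 (plus strand, mm10, as both genes lie on it), and capitals mark the bases covered in the most libraries, which were 16 libraries for Rpl26 and 9 for Rpl38.
Rpl26: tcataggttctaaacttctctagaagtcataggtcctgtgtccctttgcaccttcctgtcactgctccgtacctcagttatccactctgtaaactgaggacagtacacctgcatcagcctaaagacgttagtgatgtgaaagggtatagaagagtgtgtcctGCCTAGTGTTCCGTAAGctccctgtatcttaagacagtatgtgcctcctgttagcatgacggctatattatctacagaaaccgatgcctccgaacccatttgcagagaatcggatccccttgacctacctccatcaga
Rpl38: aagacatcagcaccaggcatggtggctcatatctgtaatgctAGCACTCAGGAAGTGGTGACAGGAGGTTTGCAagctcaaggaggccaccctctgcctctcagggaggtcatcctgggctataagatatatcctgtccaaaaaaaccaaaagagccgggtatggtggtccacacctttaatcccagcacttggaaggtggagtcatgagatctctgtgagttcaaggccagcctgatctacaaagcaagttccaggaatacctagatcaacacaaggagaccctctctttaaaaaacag

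The other recurrent genes had most of their peaks inside their own exons. Rpl21, a large-subunit protein, had a peak over the same coding exon in 14 libraries (chr5:146834974-146835111), 13 of which shared 34 bases, at a fold enrichment of 4.0 to 6.36 over all its peaks and a median width of 59.5 bp. Rps2, a small-subunit protein near the entry of the mRNA channel, had a coding-exon peak in 12 libraries (chr17:24720967-24721240). Its annotated 5' end belongs to a longer transcript, and the peak lies 988 bp after the start of the principal transcript. Rpl7a, a large-subunit protein, had one in 6 libraries (chr2:26912011-26912136). Rpsa, the small-subunit protein also known as the laminin receptor, had one in 8 libraries, centred at 2549 bp over an exon that holds coding and untranslated sequence, and its sequence is not shown. The coding stretches covered in most of the libraries with a peak there, at chr5:146835011-146835080, chr17:24720998-24721197 and chr2:26912062-26912134 (plus strand, mm10), are shown because the calls lie within coding sequence. Capitals mark exon bases, and all 3 stretches are exonic throughout.
Rpl21: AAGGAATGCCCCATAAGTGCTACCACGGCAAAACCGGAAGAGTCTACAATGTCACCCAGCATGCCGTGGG
Rps2: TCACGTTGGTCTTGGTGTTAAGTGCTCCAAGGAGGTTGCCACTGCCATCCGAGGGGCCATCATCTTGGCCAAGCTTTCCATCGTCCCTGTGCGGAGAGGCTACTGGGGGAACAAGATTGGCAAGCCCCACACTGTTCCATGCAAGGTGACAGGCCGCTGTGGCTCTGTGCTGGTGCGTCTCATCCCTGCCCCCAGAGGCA
Rpl7a: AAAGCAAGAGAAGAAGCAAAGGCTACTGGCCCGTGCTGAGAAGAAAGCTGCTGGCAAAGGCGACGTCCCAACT

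Exons held nearly all ribosomal protein peaks inside transcripts. In the 23 libraries, 79 of 85 peaks centred inside the principal transcript (92.9%) were centred in one of its exons, although exons made up 25.1% of the transcript bases in these windows. The same shares were 39.9% of peaks and 20.7% of bases over all protein-coding genes, 69.4% and 16.3% for translation initiation factors, and 53.3% and 16.6% for proteasome subunits, where there were 15 peaks. The exonic peaks fell in 18 ribosomal protein genes, had a median width of 70.0 bp and a median fold enrichment of 4.48, against 215 bp and 4.03 for the 67 peaks upstream of transcripts. Peaks of 60 bp or less made up 38.8% of those inside ribosomal protein transcripts and 3.71% of those inside all transcripts. By library, exonic ribosomal protein peaks numbered 9, 7 and 5 with GSK-126 and 7, 8 and 12 with its DMSO, against 0 to 5 in each library of the time course and 1 to 3 in each library of the GSK-J4 experiment. Each of the 6 libraries of the GSK-126 experiment thus had as many exonic calls as the highest of the other 18 libraries, or more.

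Most 31-base words of the exon sequence under these peaks were not unique in the genome. The authors sequenced paired-end reads of 50 bp, so a repeated word need not make a whole read or its pair ambiguous. Of the 31-base words centred in ribosomal protein exons under a peak of the 23 libraries, 87.4% (2592 of 2967) occurred at least once more on the mm10 chromosomes, on either strand, against 46.4% of the words in exons without a peak. In introns the shares were 2.38% under peaks and 3.42% outside them, and outside transcripts 7.62% and 11.7%. Among the 18 genes with an exonic peak, 43.1% to 81.3% of exon words in the window were repeated (median 64.7%), and among the 59 genes with exon words in the window and no such peak 0% to 75% were (median 45.9%), so the ranges overlapped. A word of the Rpl7a exons occurred up to 74 times and one of Rpl21 up to 68 times. One of Rps2 occurred up to 47 times and one of Rpsa up to 14 times. High counts also occurred in genes without an exonic peak in the 23 libraries. There a word of Rps16 occurred up to 28266 times and one of Rps20 up to 27227 times. One of Rpl7, also without such a peak, occurred more often than any of Rpl21. Rpl21 had the lowest share of repeated exon words among the 18 genes, 43.1%. How the aligner placed reads that match several places is not given in the sources used here, and the part that such reads played in these peaks was not tested. Without peaks centred in exons of the own transcript, 3.49% ± 2.90 of ribosomal protein genes had a peak, against 8.69% of all promoters, and the share was below that of all promoters in 23 of 24 libraries. In the 23 libraries 10 ribosomal protein genes then had a peak in any library, at 0 to 5 genes per library.

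**Figure D4:**
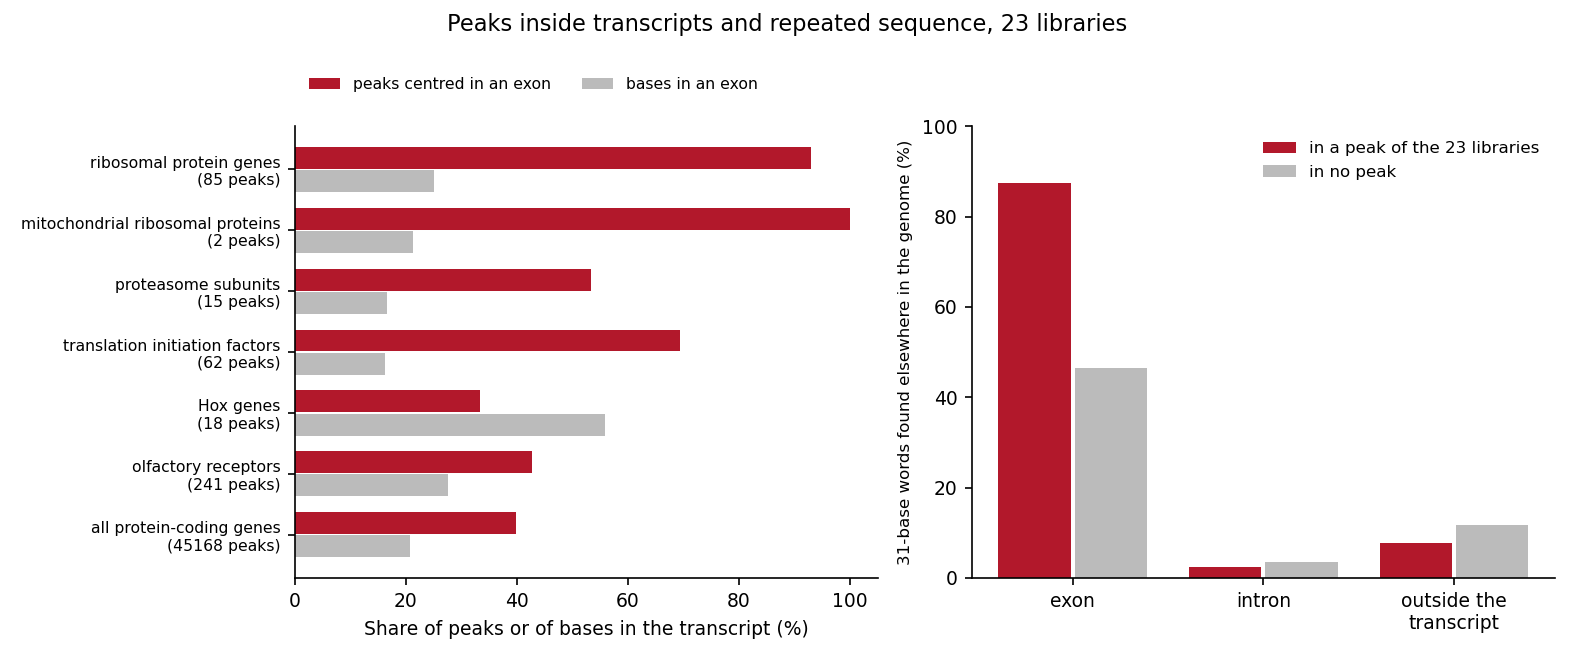
Left, share of peaks centred in an exon among peaks inside the transcript (upper bar of each pair) and share of transcript bases in exons (lower bar), in percent, for gene groups in 23 libraries; for ribosomal protein genes these are 92.9% and 25.1%. Right, percentage of 31-base words of ribosomal protein windows found elsewhere in the genome, under peaks (left bar of each pair) and outside them (right bar), by place; the pair for exons is 87.4% and 46.4%.

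GSK-126 replicate 3 was the exception at start sites. 17 ribosomal protein genes had a peak in it, 11 of them in no other library (64.7%, against 47.2% for all its promoters). 13 genes had a peak within 500 bp, and 12 of them, named after their values were seen, were Rps21, Rpl37, Rps13, Rps16, Rps19, Rps27l, Rps4x, Rpl23a, Rplp0, Rps29, Rpl34 and Rpl5. They included Rplp0, which forms the base of the ribosomal stalk, Rps19, mutated in Diamond-Blackfan anaemia in humans, and the X-linked Rps4x. The Rps21 peak was 261 bp wide at a fold enrichment of 4.03, the Rpl37 peak 199 bp at 4.24 and the Rps29 peak 53 bp at 5.71. The Rps29 peak lies over an exon of Rn7s1, a non-coding RNA gene on the opposite strand. Small-subunit genes made up 9 of the 17 (29.0% of 31) and large-subunit genes 8 (16.3% of 49). In replicates 1 and 2 of GSK-126 none of these 13 genes had a peak within 500 bp. The parts of 5 of these peaks that lie before the transcript are shown as the start-site sequence called in that library, at chr15:5116517-5116644, chr2:180257162-180257376, chr7:28350540-28350651, chr5:115559268-115559361 and chr9:66946010-66946085 (plus strand, mm10). Capitals mark GGGCGG, a binding motif of Sp1, and CCGGAAG, a binding motif of ETS factors, searched on both strands.
Rpl37: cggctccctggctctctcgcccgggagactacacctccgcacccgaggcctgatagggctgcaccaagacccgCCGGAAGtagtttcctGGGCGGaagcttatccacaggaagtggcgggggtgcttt
Rps21: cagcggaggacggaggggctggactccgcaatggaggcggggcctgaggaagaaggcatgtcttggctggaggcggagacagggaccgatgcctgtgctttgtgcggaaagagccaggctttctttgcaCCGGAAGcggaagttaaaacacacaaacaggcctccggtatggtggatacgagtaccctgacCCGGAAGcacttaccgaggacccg
Rps16: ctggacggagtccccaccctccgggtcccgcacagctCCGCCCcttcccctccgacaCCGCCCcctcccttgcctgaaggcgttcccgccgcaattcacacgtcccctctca
Rplp0: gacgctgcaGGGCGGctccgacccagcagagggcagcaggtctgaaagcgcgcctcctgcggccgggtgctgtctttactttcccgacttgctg
Rps27l: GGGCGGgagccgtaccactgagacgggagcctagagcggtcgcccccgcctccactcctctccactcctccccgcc

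In the 250 bases before the principal start, GGGCGG was present at 11 of the 13 genes (84.6%) and at 37.3% of the other 67 ribosomal protein genes, against 41.6% of all protein-coding genes. CCGGAAG was present at 15.4% of the 13 and 25.4% of the other 67, against 8.60% of all genes. Median GC content was 59.2% for the 13 and 54.4% for the other 67, against 54.8% for all genes. Over all 80 genes the observed-over-expected CpG ratio had a median of 0.813, against 0.519 for all genes. It was lower for the 13 (0.749) than for the other 67 (0.823). A match describes these letters in this window and nothing about binding.

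Other housekeeping genes showed the same split between libraries. In the 23 libraries the mean share with a peak was 6.36% ± 3.92 for ribosomal protein genes, 3.51% ± 2.77 for 78 mitochondrial ribosomal protein genes, 3.77% ± 1.95 for 45 proteasome subunits and 4.66% ± 2.04 for 55 translation initiation factors, against 10.7% ± 3.23 for all promoters (SD, n = 23 libraries). In GSK-126 replicate 3 these shares were 21.2%, 20.5%, 17.8% and 20%, against 15% for all promoters. So in that library all 4 housekeeping groups lay above all promoters, and in the 23 libraries the mean of each lay below. 2 groups of genes that are silent in most tissues also had low shares. Of 39 Hox genes, developmental regulators known as Polycomb targets, 3.34% ± 5.32 had a peak in the 23 libraries, at most 25.6% in a library, and 0% in GSK-126 replicate 3. 26 of the 39 had no peak in any library. Of 1135 olfactory receptors 1.19% ± 0.830 had a peak in the 23 libraries and 0.352% in GSK-126 replicate 3, and 1026 had none in any library. In the 3 kb window the share of ribosomal protein genes was therefore higher than that of Hox genes on average. Within 500 bp of the 5' end this was not so. There the highest share in the 23 libraries was 1.25% for ribosomal protein genes and 7.69% for Hox genes, and both medians were 0%. Hox peaks had a median fold enrichment of 2.42, which is a ratio over local background and not an amount of the mark.

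The paralogs and the usual reference genes added little. Rpl3l, which is made in heart and skeletal muscle, and Rpl10l and Rpl39l, which are made in testis, had no peak in any library, and Rps27l, a p53-responsive paralog of Rps27, had the single start-site peak in GSK-126 replicate 3. Without these 4 genes the mean share was 7.29%. Among genes often used as reference transcripts, Rpl13a and Rpl19 had no peak, Rplp0 had the 94 bp peak in GSK-126 replicate 3, and Rps18 had 1 exonic peak of 55 bp, in DIV3 replicate 3. Rps6, the substrate of S6 kinase, had 1 exonic peak of 168 bp in DMSO for GSK-126 replicate 3. Of the remaining recurrent genes, Rpl29, Rpl9 and Rpl31, all of the large subunit, had exonic peaks in 4, 4 and 3 libraries. Rpl28 had upstream peaks in 4 libraries, among them all 3 of DIV5 (3.03%, 1.95% and 2.1% of the window). Rpl5 and Rpl11, which with 5S ribosomal RNA bind the p53 regulator MDM2, had upstream peaks in 3 libraries each, and Rpl5 had a further peak near its start in GSK-126 replicate 3.

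**Figure D5:**
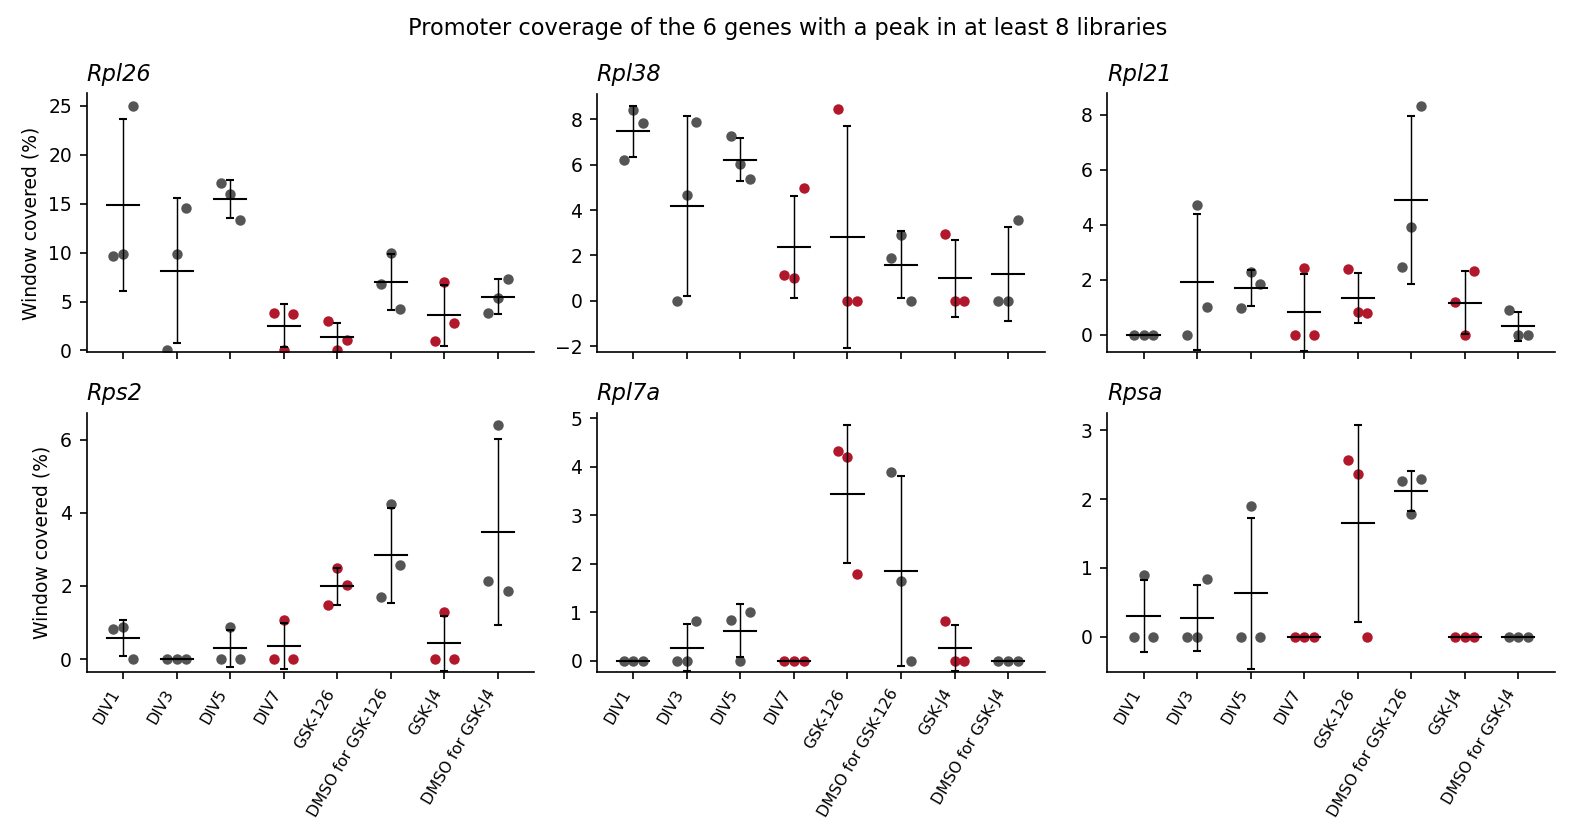
Percentage of the 6 kb window covered by peaks (vertical axis) in each library (points) of the 8 groups (horizontal axis) for the 6 ribosomal protein genes with a peak in at least 8 libraries. Red points are DIV7, GSK-126 and GSK-J4 libraries and grey points all others; horizontal marks are means and bars are 1 SD (n = 3), and at Rpl26 the DIV7 points (0 to 3.80%) lie below the DIV1 points (9.67% to 25%), as at 17.5% of all promoters tested.

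Coverage of promoter windows was then compared between groups with limma, over all promoters with coverage in at least 3 libraries and with Benjamini-Hochberg adjustment over all of them. For these tests the libraries of an experiment were brought to a common length of their strongest peaks. No ribosomal protein gene passed an adjusted p of 0.05 in any of the 4 comparisons. 4 of the 80 genes had enough coverage to be tested in the time course and in the GSK-126 experiment, and 3 in the GSK-J4 experiment. At an unadjusted p under 0.05 there was 1 gene for DIV7 against DIV1 and 0 in the other 3 comparisons. The share called among all promoters tested was 1.00% (18 of 1794) for DIV7 against DIV1, 0.0557% (1 of 1794) for the trend over DIV, 6.82% (64 of 939) for GSK-126 against DMSO and 0% (0 of 1524) for GSK-J4 against DMSO. With so few genes tested, a count of 0 says little beside these shares. The shares over all promoters also rested on single libraries. For GSK-126 against DMSO the 64 calls became 0 without GSK-126 replicate 3, without GSK-126 replicate 1, without DMSO replicate 2 or with the replicate number as a block, 4 without GSK-126 replicate 2, and 22 and 20 without DMSO replicates 1 and 3. For DIV7 against DIV1 the 18 calls became 0 without DIV7 replicate 1, 5 without DIV7 replicate 3 and 33 without DIV1 replicate 1. Over all deposited peaks 7, 7, 7 and 3 genes were tested and 0 called, where 1.12%, 1.00%, 26.9% and 0% of all promoters tested were called, in the same order.

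Rpl26 had the smallest p over time. At the common length it was covered over 1.27% ± 2.19 at DIV7 and 9.43% ± 3.57 at DIV1 (SD, n = 3 each), a difference of −8.17 ± 3.55 points (SE, limma adjusted p = 0.367), and its slope over DIV was −1.16 ± 0.565 points per day (limma adjusted p = 0.369). Over all deposited peaks it was 2.52% ± 2.18 at DIV7 and 14.8% ± 8.77 at DIV1 (limma adjusted p = 0.192), and Rpl38 was 2.37% ± 2.25 at DIV7 and 7.48% ± 1.13 at DIV1 (limma adjusted p = 0.215). Rpl26 and Rpl38 were the 2 of 7 tested ribosomal protein genes whose DIV7 libraries all lay below all DIV1 libraries, a pattern that 17.5% of all promoters tested showed, and 0 had the opposite pattern, which 2.15% showed. At the common length Rpl38 was 2.37% ± 2.25 at DIV7 and 2.07% ± 3.59 at DIV1, so its difference was not seen there. In the other direction Rpl21 had the smallest p, with 0.806% ± 1.40 at DIV7 and 0 at DIV1 (limma adjusted p = 0.868), and a slope of 0.127 ± 0.240 points per day (limma adjusted p = 0.854).

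With GSK-126, Rpl21 was covered over 2.37%, 0.817% and 0.800% in the treated libraries and over 2.47%, 3.90% and 8.32% in the DMSO libraries, a difference of −3.57 ± 2.07 points (limma adjusted p = 0.437). Rps2 had the smallest p in the other direction, with 1.99% ± 0.5 with GSK-126 and 0.433% ± 0.751 with DMSO at the common length (limma adjusted p = 0.687), while over all deposited peaks it was 1.99% ± 0.5 with GSK-126 and 2.84% ± 1.30 with DMSO, so the sign of its difference turned. Rps2 peaks were centred up to 3036 bp from the 5' end, across the edge of the 3 kb window. Its coverage counts only the part of each peak inside the window. Rpl26 was covered over 2.97%, 0 and 1.05% with GSK-126 and over 6.83%, 9.93% and 4.28% with DMSO over all deposited peaks, a difference of −5.68 ± 1.99 points (limma adjusted p = 0.0754), while at the common length it was 1.34% ± 1.5 with GSK-126 and 2.56% ± 2.24 with DMSO, a difference of −1.22 ± 1.92 points (limma adjusted p = 0.838). Rpl7a was 4.32%, 4.20% and 1.80% with GSK-126 and 3.90%, 1.65% and 0 with DMSO, and its groups overlapped. Rpl21 and Rpl26 were the 2 of 7 tested genes whose GSK-126 libraries all lay below all DMSO libraries, which 46.0% of all promoters tested did, and 0 genes lay above, which 0.797% did. The median difference over all deposited peaks was −0.472 points for the tested ribosomal protein genes and −4.77 points for all promoters tested, and at the common length these medians were −0.119 and −0.506 points.

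With GSK-J4, Rps2 was covered over 0, 1.30% and 0 in the treated libraries and over 2.13%, 6.4% and 1.87% in the DMSO libraries, a difference of −3.03 ± 2.36 points (limma adjusted p = 0.975). Here too, only the part of the Rps2 peaks inside the 3 kb window was counted. Rps2 was the 1 of 3 tested genes whose GSK-J4 libraries all lay below all DMSO libraries, which 2.46% of all promoters tested did, and 0 genes lay above, which 3.59% did. Rpl21 had the smallest p in the other direction, with 1.16% ± 1.16 with GSK-J4 and 0.3% ± 0.520 with DMSO (limma adjusted p = 0.975). Rpl26 was 0.917%, 7.02% and 2.82% with GSK-J4 and 3.80%, 5.38% and 7.33% with DMSO over all deposited peaks, and the groups overlapped.

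The place of the annotated start mattered for single genes. The principal transcript, the one ranked first for its protein by the annotation, started within 100 bp of the 5' end of the gene in 67 of the 80 genes and more than 500 bp after it in 7. With windows on the principal start, 7.76% of ribosomal protein genes had a peak on average, against 10.7% of all promoters, and the share was below that of all promoters in 19 libraries. Rps2 then had a peak in 15 libraries, and Rpl18, whose principal start lies 2614 bp after its 5' end and which had no peak in the first window, had one in 11. Within 500 bp of the principal start, 19 of the 23 libraries without GSK-126 replicate 3 had no ribosomal protein gene with a peak, and none exceeded 1.25% of the genes, against 3.67% to 10.9% of all promoters.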

How the data were processed

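Per the submitters' processing notes and the methods of the study, the authors trimmed reads with Trimmomatic 0.38, aligned them to mm10 with STAR 2.7.2b and called broad peaks per library with MACS2 2.1 at a false discovery rate of 0.1. The control used for the calls is not given in the sources used here. Each deposited list gives a fold enrichment (a ratio over local background), and −log10 p-values and q-values. The authors tested read counts with DESeq2 1.36.0, which peak lists do not allow. Here the percentage of each 6 kb window covered by peaks was tested with limma 3.58.1 (R 4.3.3; robust eBayes; two-sided; threshold 0.05), in promoters covered in at least 3 libraries, after each library was limited to its strongest peaks by −log10 p up to the shortest list (1.11 Mb in the time course, 1.07 Mb for GSK-126 and 1.40 Mb for GSK-J4). The fits were tested on simulated data with normal noise. Real coverage is absent wherever a library has no peak, so that test does not show how the fits behave on these data.

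Windows, exons and principal transcripts came from GENCODE and sequence from the RefSeq GRCm38 genome, read with Python 3.11.15 and pysam. All 21 chromosome names of the lists were in that genome and no peak ran past a chromosome end. The 12 genes with a peak in the most libraries, the paralogs ending in l, 6 reference genes and the gene with the smallest p in each direction of each comparison were named by rule, and 1 gene is counted but not reported here by name. The members, the lists and these rules were chosen with earlier results of these data known. Whether replicate numbers pair the libraries stayed undecided. Deviations of same-numbered libraries correlated from −0.0688 to 0.157 over time, from −0.0585 to 0.0930 for GSK-126 and from 0.0272 to 0.0335 for GSK-J4. Their means were 0.0138, 0.0277 and 0.0308, against −0.00678, −0.0140 and −0.0154 for libraries of different number. With 3 libraries per group, such low correlations do not exclude pairing.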

Additional observations from a re-analysis of the deposited data

How the results depend on the processing

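Of 54 alternative limma fits of the 4 comparisons, 7 (1 kb windows, and most of those on peaks at a −log10 q of at least 2) tested no ribosomal protein gene and say nothing about them. In the other 47, which tested 2 to 21 of the genes, none was called. The alternatives used all deposited peaks, stricter peaks, ranking by fold enrichment, 1 kb windows, promoters covered in at least 1 library, the replicate number as a block, or left out each library in turn. With the replicate block 0 genes were called in each comparison, and pairing of libraries by number was neither shown nor excluded. Leaving out a library moved the share of genes with a peak between 3.75% and 6.88% at DIV1, 2.50% (without replicate 3) and 8.12% (without replicate 1) at DIV3, where the value with all 3 was 5.42%, 6.88% and 8.75% at DIV5, 2.50% and 3.12% at DIV7, 9.38% and 15.6% with GSK-126, 11.9% and 13.8% with its DMSO, 2.50% and 3.75% with GSK-J4, and 4.38% and 5.00% with its DMSO.

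Of 56 alternative shares and differences, 45 stayed within 1 SD of the reported value. That SD is the spread between libraries, 4.89 for the mean share, so even a fall of that share from 6.98% to 2.14% counted as within it. So did a change of the difference from all promoters from −3.87 to −0.506 points. The count therefore does not show that the values were stable. With 1 kb windows the mean share was 1.09%, and the group shares were 0% at DIV1, DIV5, DIV7 and in DMSO for GSK-J4, 0.833% in DMSO for GSK-126 and 0.417% with GSK-J4, since few of these peaks lie within 1 kb. At the common length of all 24 libraries the share was 5.00% at DIV5, 5.00% in DMSO for GSK-126 and 3.33% in DMSO for GSK-J4. With peaks at a −log10 q of at least 2 the difference from all promoters was 0.562 points in place of −3.87, and the cause was not tested. Without GSK-126 replicate 3, windows on principal starts and peaks outside exons were chosen after seeing the data, and gave mean shares of 6.36%, 7.76% and 3.49%. Read depth is unknown, so absence of a peak sets no upper level of the mark.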
